A study of Mus musculus with 41 samples.

Results

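Prdm1, Batf, Irf4, Maf, Gata3, Id2, Rora, Ahr and Nfil3 encode transcription factors that are known from activated, tissue-seeking regulatory T (Treg) cells. They were taken by gene symbol and make up 9 of the 19434 genes in the count table of a mouse RNA-seq study of Uhrf1, whose product recruits the maintenance DNA methyltransferase to newly copied DNA. Their levels are described over 41 libraries in 8 groups, and all 9 passed the filter on low counts in both experiments. In the mm10 build Ahr lies at chr12:35497974-35535038, Id2 at chr12:25093801-25096092 and Batf at chr12:85686669-85709087, Irf4 at chr13:30749226-30766927 and Nfil3 at chr13:52967209-52981073, and Gata3 at chr2:9857078-9890034. Maf lies at chr8:115682942-115707794, Prdm1 at chr10:44437177-44528501 and Rora at chr9:68653786-69388246. Batf, Irf4 and Rora are on the plus strand and the other 6 on the minus strand.

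Resting Treg cells recirculate through lymphoid organs, while effector Treg cells have met antigen and carry programmes for entry into tissues and for restraint of particular helper responses. In activated T cells Batf pairs with Jun proteins and Irf4 at composite DNA sites, and Irf4 and Prdm1 (which encodes Blimp-1) are needed in mice for effector Treg cells and their Il10. Gata3, Maf, Rora and Ahr each drive a helper or innate lymphoid fate elsewhere and are also used by Treg cells of barrier tissues. Id2 encodes an inhibitor without a DNA-binding domain that holds back E proteins, and Nfil3 encodes a basic leucine zipper repressor that answers cytokine signals.

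In the chimera experiment, CD25-high Foxp3-YFP-positive Treg cells were sorted from chimeric knockout mice, genotype Uhrf1 fl/fl Foxp3 +/YFP-Cre (n = 4), and from control mice, genotype Uhrf1 +/+ Foxp3 YFP-Cre/YFP-Cre (n = 4). The design text calls these mice female and 8 weeks old. Cre was driven by Foxp3, so it acts in Treg cells, and the knockout females carry it on 1 of their X chromosomes and so keep Treg cells without Cre. The controls carry the Cre allele on both. In the pulse-chase experiment the mice carried Foxp3 GFP-CreERT2, a Cre that needs tamoxifen, and the Rosa26Sor CAG-tdTomato reporter of Cre action, with Uhrf1 fl/fl (n = 6) or Uhrf1 +/+ as controls (n = 5). These mice are listed as 8 weeks old, with 2 weeks of chow with tamoxifen and then 4 weeks without it. The listed values do not say whether 8 weeks was the age before or after that time. Ex-Foxp3 cells (tdTomato without GFP), labeled Treg cells (both) and post-tamoxifen Treg cells (GFP without tdTomato) were sorted from each genotype. Post-tamoxifen cells lacked tdTomato, so the reporter gives no sign of Cre action in them and fl/fl there names the genotype of the mouse. The tissue of origin was not given in the sources used here.

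Total counts ran from 2403189 to 5709702 in the chimera libraries and from 781437 to 3435802 in the pulse-chase libraries. The member with the lowest counts was Nfil3, with 7 reads in post-tamoxifen control 1, whereas Maf never had fewer than 221 reads. Levels are given as CPM of the TMM-scaled library, which do not correct for gene length.

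The promoters of 7 of the 9 genes are listed in the RefSeq table (GRCm38.p6), as the 250 bases before the annotated start. The Uhrf1 protein recognises hemimethylated CG dinucleotides, so those letters are marked here. Over 32851 windows of the same length, 92.1% held at least 1 CG, with a median of 6 per window and quartiles of 2 and 16. The windows of the members held 7 (Batf), 11 (Irf4), 15 (Prdm1), 18 (Id2), 19 (Gata3), 26 (Rora) and 43 (Nfil3), and so all 7 lay above that median. No methylation was measured in these libraries. The 3 windows below are shown with CG in capitals because they hold no exon of the gene itself in GENCODE vM21 and belong to 3 of the genes that the results turn on. They lie at chr2:9878601-9878850 (minus strand), chr10:44458749-44458998 (minus strand) and chr9:68653536-68653785 (plus strand). The Gata3 window lies within exons of the antisense gene Gm13256. The Gata3 and Prdm1 windows lie inside the spans of the counted genes given above, so the RefSeq starts used for them are internal to those spans. The Rora window ends directly before its span.
Gata3: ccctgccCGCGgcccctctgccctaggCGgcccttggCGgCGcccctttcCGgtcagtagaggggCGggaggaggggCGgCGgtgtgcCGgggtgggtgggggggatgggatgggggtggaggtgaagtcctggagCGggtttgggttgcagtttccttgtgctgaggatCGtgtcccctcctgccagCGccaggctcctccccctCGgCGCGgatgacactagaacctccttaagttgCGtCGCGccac
Prdm1: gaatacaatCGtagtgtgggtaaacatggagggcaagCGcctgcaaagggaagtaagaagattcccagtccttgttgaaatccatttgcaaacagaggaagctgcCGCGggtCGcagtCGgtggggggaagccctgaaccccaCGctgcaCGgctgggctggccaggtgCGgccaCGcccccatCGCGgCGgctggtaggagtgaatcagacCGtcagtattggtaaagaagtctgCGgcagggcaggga
Rora: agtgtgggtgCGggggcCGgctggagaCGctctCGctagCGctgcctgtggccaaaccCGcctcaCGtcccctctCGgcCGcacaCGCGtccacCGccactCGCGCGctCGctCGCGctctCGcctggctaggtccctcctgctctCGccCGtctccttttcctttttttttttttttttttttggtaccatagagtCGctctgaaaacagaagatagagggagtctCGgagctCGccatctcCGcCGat
Letters that some of these factors are known to prefer, and the E box, were searched for on both strands of the 7 windows. No letters were set for Prdm1, Irf4 or Maf. TGANTCA, the AP-1 and Batf type, occurred once, in the Prdm1 window, against 6.75% of all windows with a match. GCGTG, the core of the Ahr response element, occurred in the Prdm1 (2 matches), Rora and Irf4 windows (28.2% of all windows). GATAA occurred in the Batf window (22.6%) and AGGTCA in the Nfil3 window (14.0%). The E box CANNTG occurred in the Batf, Prdm1, Id2 and Nfil3 windows (66.2%), and TTANNTAA in none of them (5.43%). A CG inside GCGTG is counted under both searches, and a match is only a description of the letters.

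Several libraries stood apart or went against their labels. Uhrf1 was at 11.9, 8.64, 9.17 and 22.2 CPM in knockouts 1 to 4, against 32.1, 22.3, 23.2 and 22.1 CPM in chimera controls 1 to 4, so the library labelled knockout 4 lay at the control level (log2 fold change -0.95 ± 0.25 (SE), edgeR quasi-likelihood test with Benjamini-Hochberg adjustment, adjusted p = 0.0378). These are counts per gene, so a deleted exon is not seen directly. Uhrf1 in labeled fl/fl cells was at 69.3 to 88.6 CPM in libraries numbered 1 to 3 and at 10.4 to 19.0 CPM in those numbered 4 and above. Labeled controls had 59.3 to 103.9 CPM and 11.4 to 15.4 CPM. Uhrf1 was not called between fl/fl and control mice in labeled (-0.15 ± 0.60, edgeR adjusted p = 0.961), ex-Foxp3 (-0.20 ± 0.68, adjusted p = 0.976) or post-tamoxifen cells (1.62 ± 0.64, adjusted p = 0.113). Y-linked reads reached 423.5 CPM in chimera control 1, although the design text gives females, and 328.3 to 456.1 CPM in controls 2 and 3 of all 3 pulse-chase populations, against at most 2.31 CPM elsewhere. Chimera controls 3 and 4 held more cell division RNA, 496.1 and 432.1 CPM over 12 genes, against 111.3 to 259.3 CPM in the other chimera libraries, and more B and plasma cell RNA (153.1 and 138.7 CPM). Foxp3 was at 128 CPM in post-tamoxifen fl/fl 3 and at 123 CPM in post-tamoxifen control 2, against 287 to 537 CPM in the other post-tamoxifen libraries. A list of 6 NK cell genes summed to 14.0 and 22.9 CPM in ex-Foxp3 fl/fl 1 and 3, against at most 2.34 CPM in the other ex-Foxp3 libraries. They are called NK cell genes below by the name of the list. Ncr1, Klra8 and Klra4 of the list were at 0 in every ex-Foxp3 fl/fl library, and the source of the reads was not tested. CD4 T cell genes were present in every library (2564 to 3675 CPM over 6 genes), and sums over 6 markers of group 2 innate lymphoid and mast cells, which also use Gata3, Rora and Id2, were at most 0.889 CPM.

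Per kilobase of exon, Maf, Gata3 and Batf were the most abundant of the 9 in labeled fl/fl cells, with mean levels of 100.4, 91.1 and 66.0 CPM per kb. Id2 followed at 47.3 CPM per kb, and Irf4, Nfil3, Rora, Ahr and Prdm1 lay between 15.4 and 21.7 CPM per kb. In chimera controls Gata3 led with 57.7 CPM per kb, ahead of Batf (29.7), Maf (27.9) and Irf4 (21.95), and Prdm1 was lowest at 4.48 CPM per kb. On that scale ex-Foxp3 fl/fl cells had more Id2 than any other member, 110.7 CPM per kb.

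The width of the pattern over the 8 groups differed from gene to gene. The highest group mean of Id2 was 18.4 times the lowest, that of Maf 6.51 times, Rora 6.40, Nfil3 4.84, Prdm1 4.80, Ahr 4.22, Batf 2.71, Gata3 2.15 and Irf4 1.46 times. Labeled fl/fl cells had the highest mean of Prdm1, Batf, Maf, Gata3, Ahr and Nfil3, ex-Foxp3 fl/fl cells that of Id2 and Rora, and chimera controls that of Irf4. Chimera knockouts had the lowest mean of 7 genes, and post-tamoxifen controls that of Irf4 and Nfil3. The order of Id2 was ex-Foxp3 fl/fl (269.9 ± 127.7 CPM, SD), post-tamoxifen fl/fl (126.3 ± 88.6), ex-Foxp3 control (117.2 ± 15.9), labeled fl/fl (115.4 ± 27.2), post-tamoxifen control (82.0 ± 35.7), labeled control (77.9 ± 16.4), chimera control (30.4 ± 1.75) and chimera knockout (14.6 ± 7.17). Only the last 2 steps, from labeled control to chimera control and from there to chimera knockout, were free of overlap between libraries. For Maf and Ahr the step between chimera control and chimera knockout was the only one without overlap, and for the other 6 genes every pair of neighbours in the order overlapped. The 2 experiments used other reporters and sorts, so levels across them were not tested.

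**Figure D1:**
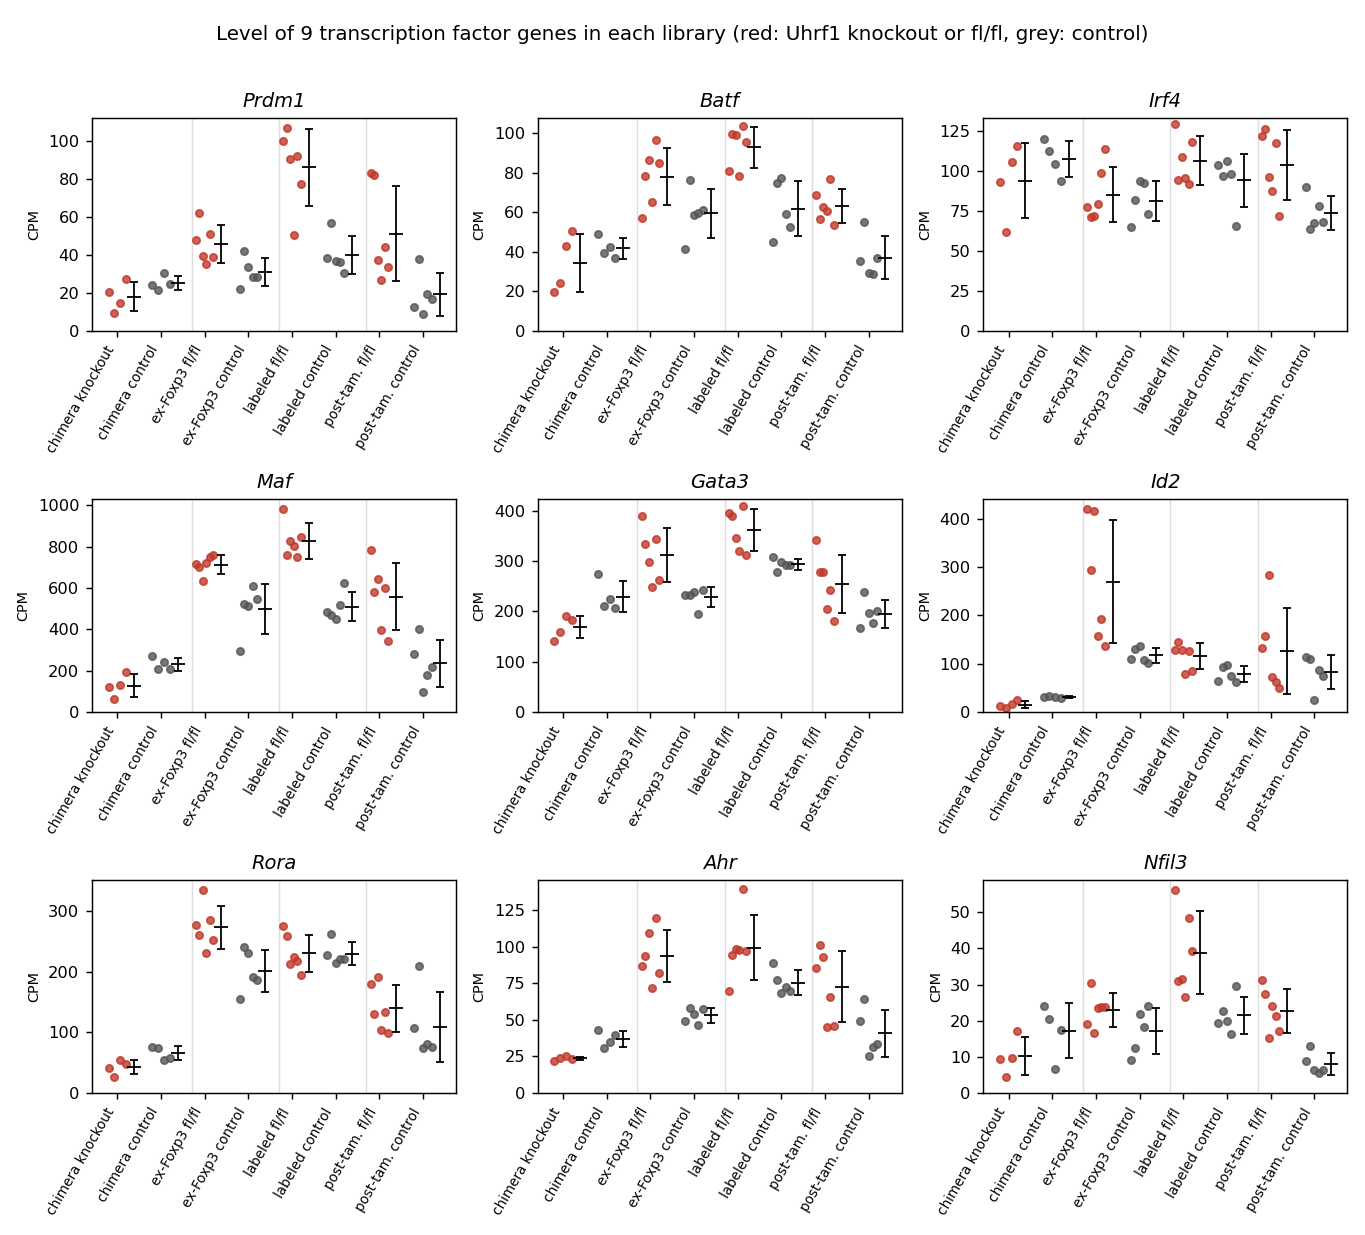
CPM of each gene in each of the 41 libraries (points, vertical axis linear from 0), by group along the horizontal axis, with mean ± SD as black bars. Id2 reached 421 CPM in ex-Foxp3 fl/fl 1 and was at 7.75 CPM in chimera knockout 2, while Irf4 stayed between 61.6 and 129.8 CPM.

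The first question the design asks is what differs in Treg cells of chimeric knockouts. All 9 fitted fold changes were negative there, where 50.2% of the 9569 genes tested were positive, and their median was -0.65 on the log2 scale, against 0.00085 over all genes. The members were chosen with earlier results of these data known, and they moved together across the pulse-chase libraries. Counts and medians of the members, here and below, are thus not those of independent genes. Gata3, Id2 and Ahr fell in knockouts, 3 of 9, where 2.41% of all genes were called, 0.857% higher and 1.56% lower. In bulk samples fewer cells of a type and less RNA per cell cannot be told apart.

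Id2 was at 11.1, 7.75, 15.4 and 24.3 CPM in knockouts 1 to 4, against 30.5, 32.8, 29.8 and 28.7 CPM in controls (log2 fold change -1.09 ± 0.24, SE, edgeR adjusted p = 0.0165). The control libraries were nearly level and every knockout library lay below them, with the library labelled knockout 4 closest. Gata3, the driver of type 2 helper cells and a partner of Foxp3, was at 142, 159, 190.5 and 182 CPM in knockouts, against 274, 211, 225 and 206 CPM in controls (-0.46 ± 0.10, edgeR adjusted p = 0.0118). Ahr, the receptor for dioxins and dietary indoles, was at 22.1, 23.7, 25.01 and 23.4 CPM in knockouts, against 43.2, 30.7, 34.5 and 39.8 CPM in controls (-0.66 ± 0.17, edgeR adjusted p = 0.0270). Ahr was the most even of the 9 genes among knockout libraries, with a coefficient of variation of 5.00%, and the groups of both genes did not overlap.

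Maf was at 121, 62.0, 131 and 194 CPM in knockouts, against 268, 206, 242 and 205 CPM in controls, again without overlap, but the spread among knockouts was wide and the call was not reached (-0.87 ± 0.33, edgeR adjusted p = 0.333). With it, 4 of 9 genes lay lower without overlap, where 4.62% of all genes did and 3.58% lay higher without overlap. Rora, an orphan nuclear receptor of innate lymphoid cells, had a fold change of -0.65 ± 0.18 (edgeR adjusted p = 0.0643), and Prdm1, Batf, Irf4 and Nfil3 had values from -0.80 to -0.21 with edgeR adjusted p of 0.383 to 0.676. Knockout 4, the library with Uhrf1 at the control level, was the highest knockout library for Prdm1, Batf, Irf4, Maf, Id2 and Nfil3 and not for Gata3, Rora and Ahr.

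Cell division RNA was high in chimera controls 3 and 4 and not in controls 1 and 2, and its part in the result was not tested. Without controls 3 and 4, Gata3 remained below the threshold (-0.53, edgeR adjusted p = 0.0370), Rora came below it (-0.84, adjusted p = 0.0469), and Id2 (-1.14, adjusted p = 0.109) and Ahr (-0.65, adjusted p = 0.151) did not remain so. Without control 1 and knockout 4, Id2 (-1.46, edgeR adjusted p = 0.000282) and Gata3 (-0.40, adjusted p = 0.0265) kept their calls and Ahr did not (-0.57, adjusted p = 0.128). Of single libraries, the Gata3 call needed control 1, knockout 1 and knockout 2 (adjusted p up to 0.0751 without one of them). The Id2 call needed each library except control 1 and knockout 4 (up to 0.0797), and the Ahr call needed controls 1, 3 and 4 and knockouts 1 and 2 (up to 0.133), while Rora passed without knockout 3 (0.0261).

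In all 3 pulse-chase populations the 9 fitted fold changes of fl/fl over control were positive instead. The 3 comparisons share 1 fit and use separate libraries, and whether libraries with the same number came from 1 mouse was not given in the sources used here. The plot of genotype differences shows both experiments on one scale.

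**Figure D2:**
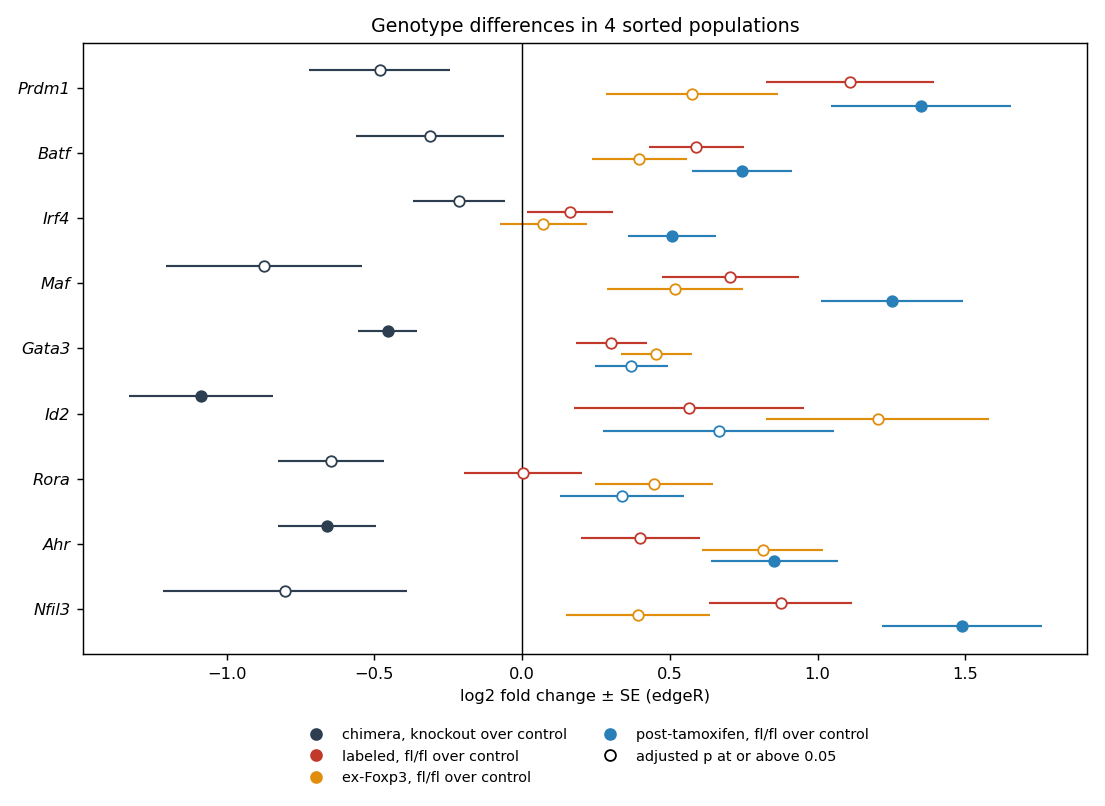
Fitted log2 fold change of knockout or fl/fl over control (horizontal axis, ± SE) for each gene in 4 sorted populations, with filled points for an edgeR adjusted p below 0.05. All 9 points of the chimera lie left of 0, Id2 furthest at -1.09, and all points of the pulse-chase lie at or right of 0, up to 1.49 for Nfil3 in post-tamoxifen cells.

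Labeled Treg cells had Foxp3 and had been marked by Cre at the time of tamoxifen. None of the 9 genes was called there by edgeR, where 0.0101% of 9921 genes were called, although 5 had an unadjusted p below 0.05, as had 9.41% of all genes, and DESeq2 called Prdm1 (adjusted p = 0.0167). The median log2 fold change was 0.57, against 0.0029 over all genes. Batf ran from 78.6 over a median of 97.4 to 103.5 CPM in fl/fl mice, against 45.0, 74.8, 77.2, 59.3 and 52.4 CPM in controls 1 to 5 (0.59 ± 0.16, edgeR adjusted p = 0.143). Maf ran from 751 over 813 to 984 CPM in fl/fl mice, against 483, 469, 448, 518 and 624 CPM in controls (0.70 ± 0.23, edgeR adjusted p = 0.276). Both genes were higher in every fl/fl library than in any control, as was Gata3 (313 to 410.3 CPM in fl/fl mice and 278 to 308 CPM in controls), which makes 3 of 9 where 0.655% of all genes lay higher without overlap.

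Prdm1 had the largest fitted change in labeled cells, 1.11 ± 0.28 (edgeR adjusted p = 0.123). Its levels ran from 50.2 over 91.1 to 106.9 CPM in fl/fl mice, against 38.2, 56.8, 36.6, 36.2 and 30.6 CPM in controls. A single overlap, fl/fl 4 below control 2, kept the groups from being apart. Rora did not share the shift: its means were 230.7 ± 30.7 CPM in fl/fl and 229.8 ± 18.9 CPM in control mice (SD, n = 6 and n = 5), with a fold change of 0.0022 ± 0.20 (edgeR adjusted p = 0.998) whose sign turned when any of several libraries was left out. The members' median was 0.51 for libraries numbered 1 to 3 alone and 0.51 for those numbered 4 and above, where 9 and 8 values were positive. Cell division genes summed to 3250, 2019 and 2532 CPM in labeled fl/fl 1 to 3, against 932.5, 1368 and 1640 CPM in labeled controls 1 to 3. In numbers 4 and above they summed to 302.0 to 362.4 CPM in fl/fl mice and to 263.1 and 266.3 CPM in controls. The part of cell division in the labeled differences was not tested.

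Ex-Foxp3 cells had lost the GFP that reports Foxp3. Again no member was called in the edgeR fit of the 6 pulse-chase groups (0.181% of all genes were). Of the 9, 6 had an unadjusted p below 0.05, as had 8.84% of all genes, and DESeq2 called Gata3 (adjusted p = 0.0389) and Ahr (adjusted p = 0.0198). With the replicate number as a block, which here too rests on the number alone, edgeR called 5 of 9 (Prdm1, Gata3, Id2, Rora and Ahr), among 383 genes. The median log2 fold change was 0.45, against 0.0050 over all genes. Ahr ran from 71.7 over 90.0 to 119.7 CPM in fl/fl mice, against 49.4, 58.3, 54.2, 46.5 and 57.7 CPM in controls (0.81 ± 0.21, edgeR adjusted p = 0.0849). Gata3 ran from 249 over 317 to 391 CPM in fl/fl mice, against 233, 232, 239, 195 and 243 CPM in controls (0.45 ± 0.12, edgeR adjusted p = 0.09997). Every fl/fl library was above every control library for both genes and for Maf (634 to 759 CPM in fl/fl and 292 to 609 CPM in controls), 3 of 9 where 0.958% of all genes lay higher without overlap and 1.26% lower. Gata3 passed without fl/fl 6 (edgeR adjusted p = 0.0494).

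Id2 stood out among ex-Foxp3 cells for its spread. It was at 421, 294 and 418 CPM in fl/fl 1 to 3 and at 158, 192 and 136 CPM in fl/fl 4 to 6, against 109.5, 131, 137, 108 and 100.3 CPM in controls (1.204 ± 0.38, edgeR adjusted p = 0.201). The lowest fl/fl library overlapped with the highest control, and the 2 libraries above 400 were those with NK cell genes, of which Ncr1, Klra8 and Klra4 were at 0 in every ex-Foxp3 fl/fl library. Without these and the 2 post-tamoxifen libraries low in Foxp3, the fold change of Id2 was 0.74 (edgeR adjusted p = 0.654). It was 1.58 within numbers 1 to 3 (edgeR adjusted p = 0.101) and 0.64 within numbers 4 and above (adjusted p = 0.265). Whether reads of the NK cell genes came from NK cells or from the sorted T cells was not tested, nor was their part in these levels.

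Post-tamoxifen cells carry no reporter mark. Prdm1, Batf, Irf4, Maf, Ahr and Nfil3 rose in fl/fl mice, 6 of 9, where 7.23% of all genes were called, 3.9% higher and 3.33% lower. The median log2 fold change was 0.75, against 0.0083 over all genes. Nfil3 ran from 15.2 over 22.6 to 31.4 CPM in fl/fl mice, against 8.87, 13.1, 6.35, 5.42 and 6.42 CPM in controls (1.49 ± 0.27, edgeR adjusted p = 0.00101). It was the one member whose groups did not overlap (1.42% of all genes lay higher without overlap and 1.71% lower), and the controls rest on 7 to 40 reads each. The calls depended on which groups entered the fit. In edgeR fits of the compared groups alone, Batf (adjusted p = 0.0433) and Nfil3 (0.0283) kept their calls in post-tamoxifen cells, and Prdm1 (0.107), Irf4 (0.08797), Maf (0.0987) and Ahr (0.127) did not. The same kind of edgeR fit called Prdm1 (adjusted p = 0.00320) and Maf (0.000544) in labeled cells and Gata3 (0.0224), Rora (0.0353) and Ahr (0.00204) in ex-Foxp3 cells. The number of genes called is therefore not shown to differ between the 3 populations.

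Prdm1 was at 82.7 and 82.0 CPM in post-tamoxifen fl/fl 1 and 2 and between 26.8 and 44.3 CPM in the other 4, against 12.7, 37.9, 8.73, 19.5 and 16.5 CPM in controls (1.35 ± 0.31, edgeR adjusted p = 0.00665). Control 2 alone reached into the fl/fl range. Maf ran from 341 over 590 to 782 CPM in fl/fl mice, against 280.1, 401, 95.3, 179 and 217 CPM in controls (1.25 ± 0.24, edgeR adjusted p = 0.00250), with the same library highest among controls. Ahr ran from 44.8 over 75.5 to 101 CPM in fl/fl mice, against 49.4, 64.0, 25.005, 31.5 and 33.5 CPM in controls (0.85 ± 0.21, edgeR adjusted p = 0.0120). Batf had a fold change of 0.75 ± 0.17 (edgeR adjusted p = 0.00567) and Irf4 of 0.51 ± 0.15 (adjusted p = 0.03105). Gata3 (0.37 ± 0.12, edgeR adjusted p = 0.0562), Id2 (0.67 ± 0.39, adjusted p = 0.305) and Rora (0.34 ± 0.21, adjusted p = 0.333) were not called.

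Markers of other cells were higher in many post-tamoxifen libraries than in the other pulse-chase sorts, but not in all of them. Myeloid genes (12 measured) summed to between 112.5 and 981.4 CPM in fl/fl and between 41.1 (control 2) and 664.0 CPM in control libraries, against at most 66.3 CPM in ex-Foxp3 and labeled libraries. Cell division genes summed to between 2866 and 4465 CPM in fl/fl 1 to 3, to between 297 and 522 CPM in fl/fl 4 to 6 and to between 179 and 1327 CPM in controls. B and plasma cell genes (9 measured of 10) summed to 679.7, 259.2 and 273.9 CPM in fl/fl 1 to 3 and to between 70.2 and 80.6 CPM in fl/fl 4 to 6, against 43.4 to 158.4 CPM in controls. Labeled libraries of both genotypes had 56.9 to 81.7 CPM. Prdm1 and Irf4 are also used by plasma cells. NK cell genes summed to 20.8 CPM in fl/fl 3, the library with the most Id2 of that group, and to at most 5.34 CPM in the other post-tamoxifen libraries, with Ncr1, Klre1, Klra8 and Klra4 at 0 in all 11. The part of these other cells and of cell division in the differences was not tested. Within numbers 1 to 3 the median of the 9 genes was 1.02 and Prdm1, Irf4, Maf, Gata3, Ahr and Nfil3 passed, and within numbers 4 and above it was 0.65 and Batf, Maf and Nfil3 passed. The sign of Id2 turned between them, with 1.28 within numbers 1 to 3 (edgeR adjusted p = 0.0753) and -0.41 within numbers 4 and above (adjusted p = 0.336). Without the 4 libraries low in Foxp3 or with NK cell genes, 7 members passed, Gata3 and Rora among them and Irf4 not (edgeR adjusted p = 0.0658). Without controls 2 and 3, 6 passed, Rora among them and Irf4 not (edgeR adjusted p = 0.2004). Of single libraries, the Rora call turned on control 2 (0.78 without it, edgeR adjusted p = 0.00160). The Irf4 call was lost without control 2, 3 or 5 or fl/fl 1 or 2 (adjusted p up to 0.0872), and the Ahr call without control 3 (0.0544), whereas Gata3 passed without control 2, fl/fl 4 or fl/fl 6 (down to 0.00968).

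The design also asks what changes when Foxp3 is lost, by setting ex-Foxp3 cells against labeled cells of the same genotype. In fl/fl mice Prdm1 and Nfil3 fell in ex-Foxp3 cells, 2 of 9, where 4.09% of all genes were called, 2.06% higher and 2.04% lower. Prdm1 ran from 34.9 over 43.5 to 61.9 CPM in ex-Foxp3 cells, against 50.2 over 91.1 to 106.9 CPM in labeled cells (-0.92 ± 0.26, edgeR adjusted p = 0.0406). Nfil3 ran from 16.7 over 23.6 to 30.4 CPM in ex-Foxp3 cells, against 26.5 over 35.3 to 56.3 CPM in labeled cells (-0.76 ± 0.23, edgeR adjusted p = 0.0438). No member lay apart, where 1.57% of all genes lay higher and 1.29% lower without overlap. For both genes the overlap came through labeled fl/fl 4, the lowest labeled library of each. Foxp3 itself ran from 13.4 to 113.5 CPM in ex-Foxp3 and from 318 to 509 CPM in labeled fl/fl cells.

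Id2 had a positive value, a fold change of 1.21 ± 0.36 in ex-Foxp3 over labeled fl/fl cells (edgeR adjusted p = 0.0506). Its labeled libraries ran from 78.6 over 127 to 146 CPM, so that the lowest ex-Foxp3 library, at 136 CPM, overlapped with them. With libraries of the same number blocked, Id2 passed (1.11 ± 0.26, edgeR adjusted p = 0.0101), as did Prdm1 (7.27e-05) and Nfil3 (0.0163). Without ex-Foxp3 fl/fl 1 and 3 and the 2 post-tamoxifen libraries low in Foxp3 none of the 9 passed, and the values were 0.73 for Id2 (edgeR adjusted p = 0.2405), -0.91 for Prdm1 (0.0751) and -0.63 for Nfil3 (0.152). Prdm1 lost its call without any 1 of 9 libraries (all but ex-Foxp3 2 and labeled 4 and 6, adjusted p up to 0.0911), and Nfil3 without any 1 of 8 (all but ex-Foxp3 2 and labeled 2 to 4, up to 0.123). Id2 passed without ex-Foxp3 4 or 6 (down to 0.0409).

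In control mice edgeR called 0 of the 9 genes between ex-Foxp3 and labeled cells, as did DESeq2, where edgeR called 0.353% of all genes, and 2 members had an unadjusted p below 0.05. Gata3 was at 233, 232, 239, 195 and 243 CPM in ex-Foxp3 cells, against 308, 278, 299, 294 and 292 CPM in labeled cells, without overlap (-0.37 ± 0.13, edgeR adjusted p = 0.256). It passed with libraries of the same number blocked (-0.37 ± 0.09, edgeR adjusted p = 0.0117). Ahr was also lower without overlap (46.5 to 58.3 CPM in ex-Foxp3 and 68.6 to 89.2 CPM in labeled cells, -0.51 ± 0.22, edgeR adjusted p = 0.422), 2 of 9 where 1.75% of all genes were. Id2 was higher without overlap (100.3 to 137 CPM in ex-Foxp3 and 62.0 to 96.2 CPM in labeled cells, 0.58 ± 0.40, edgeR adjusted p = 0.693), 1 of 9 where 1.4% of all genes were.

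Whether Foxp3 loss and genotype interact was tested directly. No member had an unadjusted p below 0.05 in the edgeR interaction test, which called 0.0% of all genes, and DESeq2 called no member either. The interaction values ran from -0.53 ± 0.40 (Prdm1) to 0.64 ± 0.54 (Id2) on the log2 scale. With libraries of the same number blocked, the values were -0.55 ± 0.24 (Prdm1), 0.51 ± 0.39 (Id2) and 0.44 ± 0.22 (Rora), with an edgeR adjusted p of 1 for each. The call of Prdm1 and Nfil3 in fl/fl mice and not in controls is therefore not shown to be a difference between the genotypes.

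**Figure D3:**
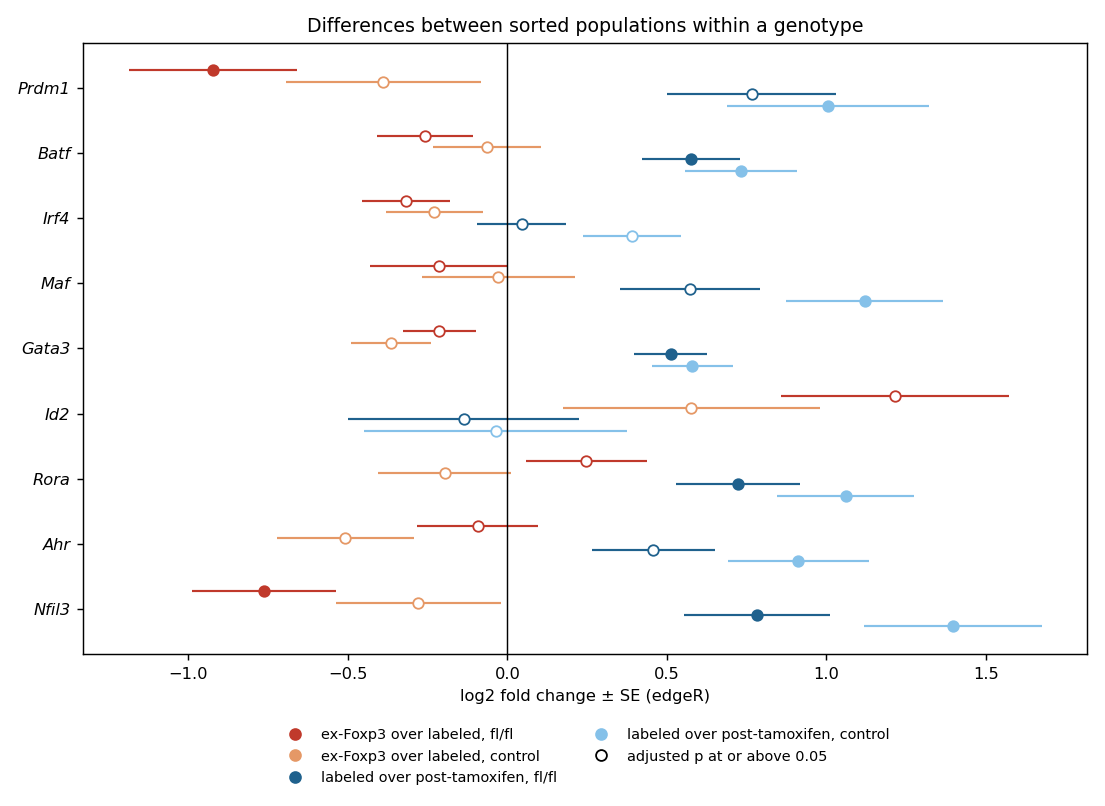
Fitted log2 fold change between sorted populations of a genotype (horizontal axis, ± SE) for each gene, with filled points for an edgeR adjusted p below 0.05. Labeled over post-tamoxifen points lie to the right for every gene except Id2 (-0.14 in fl/fl and -0.04 in control mice) and ex-Foxp3 over labeled points lie mostly left of 0, with Id2 at 1.21 in fl/fl and 0.58 in control mice.

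Labeled and post-tamoxifen cells were both sorted with the GFP that reports Foxp3 and differed in the Cre reporter mark. Foxp3 RNA of post-tamoxifen control 2 (123 CPM) and fl/fl 3 (128 CPM) lay within the range of ex-Foxp3 controls (79.5 to 151.6 CPM). In control mice 7 of the 9 genes rose in labeled cells, where 7.93% of all genes were called, 3.98% higher and 3.95% lower, and the median log2 fold change of the 9 was 0.91. Rora was at 228, 262, 215, 222 and 222 CPM in labeled cells, against 106, 210.2, 74.6, 81.0 and 75.2 CPM in post-tamoxifen cells (1.06 ± 0.21, edgeR adjusted p = 0.00229). Maf was at 483, 469, 448, 518 and 624 CPM in labeled cells, against 280.1, 401, 95.3, 179 and 217 CPM in post-tamoxifen cells (1.12 ± 0.25, edgeR adjusted p = 0.00427). Both were higher in every labeled library, with post-tamoxifen control 2 nearest to them. Nfil3 had the largest fold change, 1.40 ± 0.28 (edgeR adjusted p = 0.00137), and with Gata3 and Ahr 5 of 9 genes lay higher without overlap, against 2.92% of all genes, while 2.75% lay lower without overlap.

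Ahr (0.91 ± 0.22, edgeR adjusted p = 0.00737), Batf (0.73 ± 0.18, adjusted p = 0.00587), Gata3 (0.58 ± 0.13, adjusted p = 0.00276) and Prdm1 (1.01 ± 0.32, adjusted p = 0.0448) also rose in labeled control cells. Irf4 (0.39 ± 0.15, edgeR adjusted p = 0.125) and Id2 (-0.04 ± 0.41, adjusted p = 0.978) were not called. Without controls 2 and 3, Batf (edgeR adjusted p = 0.0553) and Prdm1 (0.0882) did not pass. Prdm1 lost its call without any library except labeled 5 and post-tamoxifen 2 (up to 0.150), and Irf4 passed without labeled 5 (0.0470). Within numbers 1 to 3 only 1 member passed (Gata3), and within numbers 4 and above 6 did. In an edgeR fit of the compared groups alone, Rora (adjusted p = 0.0611), Maf (0.0981) and Prdm1 (0.0667) lost their calls, while Batf (0.0344), Gata3 (0.00238), Ahr (0.0148) and Nfil3 (0.00964) kept theirs. Myeloid genes summed to between 46.6 and 62.3 CPM in labeled controls, against 41.1 CPM in post-tamoxifen control 2 and 286.6 to 664.0 CPM in the other 4. A sum over 6 Treg cell genes was 2792 to 3146 CPM in labeled controls and 1581 to 2792 CPM in post-tamoxifen controls, lowest in controls 1 and 2. The part of these cells in the differences was not tested.

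In fl/fl mice Batf, Gata3, Rora and Nfil3 rose in labeled cells against post-tamoxifen cells, 4 of 9, where 4.58% of all genes were called, 1.79% higher and 2.78% lower. Batf ran from 78.6 over 97.4 to 103.5 CPM in labeled cells, against 53.4 over 61.5 to 77.0 CPM in post-tamoxifen cells (0.58 ± 0.15, edgeR adjusted p = 0.0204). Rora ran from 194 over 221 to 276 CPM in labeled cells, against 99.4 over 132 to 191 CPM in post-tamoxifen cells (0.72 ± 0.19, edgeR adjusted p = 0.0256). These 2 lay higher without overlap, where 1.23% of all genes did and 1.25% lay lower. Gata3 (0.51 ± 0.12, edgeR adjusted p = 0.00602) and Nfil3 (0.78 ± 0.23, adjusted p = 0.0381) were called with overlap.

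With libraries of the same number blocked, Prdm1 passed in labeled over post-tamoxifen fl/fl cells as well (0.82 ± 0.16, edgeR adjusted p = 0.000599, against 0.0967 without the block). Numbers split these results: within 1 to 3 none of the 9 passed and 6 values were positive, and within 4 and above 8 passed. Without the 4 libraries low in Foxp3 or with NK cell genes Nfil3 lost its call (edgeR adjusted p = 0.0625), as it did in a fit of the compared groups alone (0.0673). The Treg cell genes summed to between 2670 and 3227 CPM in labeled fl/fl cells and between 1073 and 2796 CPM in post-tamoxifen fl/fl cells. Id2 had a fold change of -0.14 ± 0.36 (edgeR adjusted p = 0.906) over all mice and of 0.69 ± 0.18 (adjusted p = 0.00835) within numbers 4 and above. Of single libraries, Batf lost its call without post-tamoxifen 2 or 6 or labeled 5 (adjusted p up to 0.0538), Rora without labeled 1 or 2 or post-tamoxifen 2, 4, 5 or 6 (up to 0.0677), and Nfil3 without labeled 1, 5 or 6 or post-tamoxifen 3, 4, 5 or 6 (up to 0.107). Prdm1 passed without post-tamoxifen 1 or 2 (down to 0.0360). No member was called in the edgeR test of the interaction of genotype with the reporter mark, where 0.0202% of all genes were, none had an unadjusted p below 0.05, and DESeq2 called none. Its values ran from -0.61 ± 0.36 (Nfil3) to -0.07 ± 0.17 (Gata3).

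Libraries numbered 1 to 3 and those numbered 4 and above were apart for many genes within each pulse-chase group. Among fl/fl mice they did not overlap for 3 of the 9 genes in ex-Foxp3 cells (Irf4, Maf and Id2), where 19.2% of all genes did not, for 1 in labeled cells (Id2, 21.7%) and for 3 in post-tamoxifen cells (Gata3, Id2 and Ahr, 30.8%). In control mice they did not overlap for 2 genes in ex-Foxp3 cells (Maf and Id2, 22.0%), 2 in labeled cells (Prdm1 and Maf, 29.8%) and 0 in post-tamoxifen cells (18.6%). The levels of these genes are given as a description. In post-tamoxifen cells Id2 was at 133, 158 and 285 CPM in fl/fl 1 to 3 and at 71.6, 61.1 and 49.5 CPM in fl/fl 4 to 6. In labeled cells it was at 129, 146 and 129 CPM in fl/fl 1 to 3 and at 78.6, 126 and 84.6 CPM in fl/fl 4 to 6. The 2 sets were apart in all 3 fl/fl populations, and ex-Foxp3 controls 1 to 3 (109.5 to 137 CPM) were just above controls 4 and 5 (100.3 and 108 CPM). Maf ran the other way in ex-Foxp3 fl/fl cells, with 634 to 716 CPM in libraries 1 to 3 and 719 to 759 CPM in libraries 4 to 6. Ahr of post-tamoxifen fl/fl cells was also apart, at 85.4 to 101 CPM in libraries 1 to 3 and 44.8 to 65.5 CPM in libraries 4 to 6, but it was not apart in labeled or ex-Foxp3 fl/fl cells. Cell division RNA moved with these numbers and its part was not tested, nor do the labels say what the numbers mark.

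**Figure D4:**
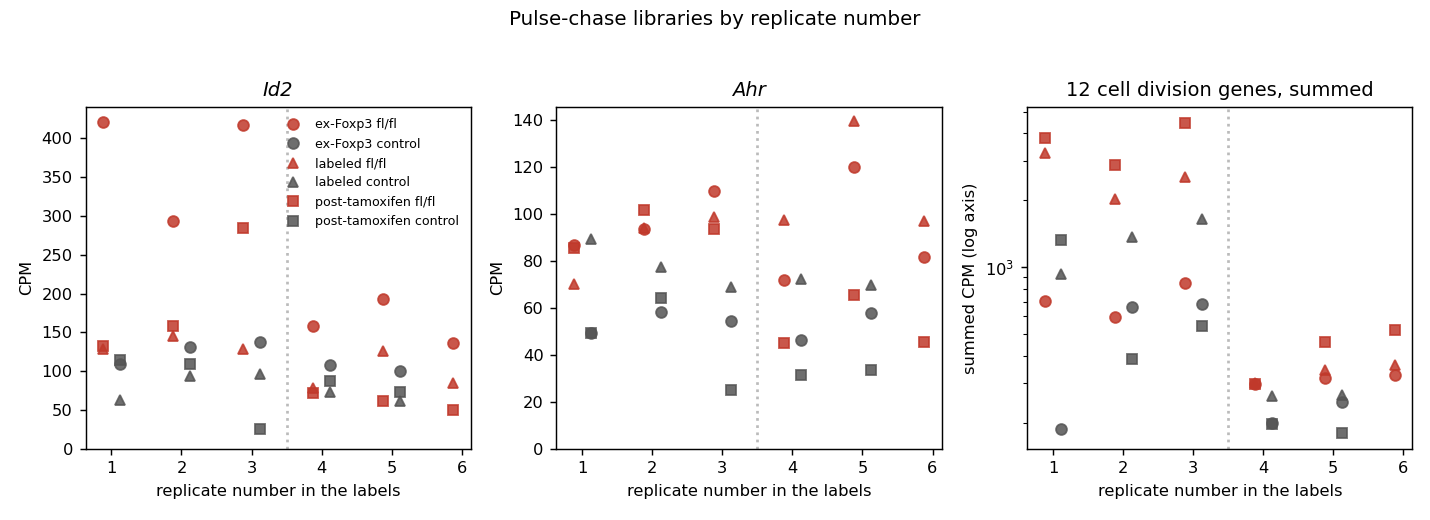
Id2 and Ahr (CPM, linear axes) and the summed level of 12 cell division genes (CPM, log axis) in each pulse-chase library, by replicate number in the labels, with a dotted line between numbers 3 and 4. Id2 of ex-Foxp3 fl/fl cells lies at 294 to 421 CPM left of the line and at 136 to 192 CPM right of it.

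Across the 33 pulse-chase libraries the members moved together to differing degrees. The 36 pairs had Pearson correlations of log2 CPM from 0.0563 to 0.861, with a median of 0.724, and the highest was between Maf and Nfil3. These points share depth and group differences, and may share mice, so the values are a description. Among the genes most like Maf, of 7261 others, were B4galnt4 (r = 0.931) and Atp2b4 (0.930), and among those most like Ahr were Osbpl3 and Cldn25 (0.849 each). Icos, which encodes a costimulatory receptor, was closest to Gata3 (0.879), ahead of Serinc3 (0.851) and Il10ra (0.849), and followed, for Prdm1 (0.881), after Nucb1 (0.899) and Serinc3 (0.894). Id2 was most like Ccl5 (0.900), Cxcr6 (0.883) and Runx3 (0.879), genes of a chemokine, a chemokine receptor and a transcription factor of cytotoxic lymphocytes. Rora was most like Ahnak (0.900), Slc4a7 (0.887) and Zdhhc2 (0.884), Batf like AW112010 (0.869), Cd82 (0.861) and Hip1r (0.860), and Nfil3 like Acot7 (0.877), Fam129a (0.876) and Alcam (0.870). Irf4 had the weakest likenesses, with Psat1 (0.726), M6pr (0.713) and Prdx1 (0.708).

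Other genes of the effector Treg programme, a list of 28 genes, mostly of surface and secreted products, were counted beside the 9 factors. Il2ra, Ctla4 and Tnfrsf18 of this list are also among the Treg cell genes summed above. In the chimera, 6 of 25 tested fell in knockouts and none rose, with a median log2 fold change of -0.50. Of all genes, 1.56% were called lower there and 0.857% higher. Among them were Ebi3 (-2.20 ± 0.31, edgeR adjusted p = 7.27e-05), a cytokine subunit, Pdcd1 (-1.34 ± 0.20, adjusted p = 0.00142), Itgb1 and Nt5e. In post-tamoxifen cells, 15 of 28 rose in fl/fl mice and none fell, with a median of 1.15, where 3.9% of all genes were called higher and 3.33% lower. Those that rose included Icos (1.37 ± 0.24, edgeR adjusted p = 0.00104), Entpd1 (1.02 ± 0.19, adjusted p = 0.00143), Il10 (3.43 ± 0.72, adjusted p = 0.00337) and Itgae. Fewer genes were called in post-tamoxifen cells by a fit of the compared groups alone, in which this list was not counted. In labeled and ex-Foxp3 cells none was called between genotypes (0.0101% and 0.181% of all genes were), with 24 of 28 values positive and medians of 0.44 and 0.51. Against labeled cells, 10 of 28 fell in ex-Foxp3 fl/fl cells, led by Il2ra (-2.05 ± 0.23, edgeR adjusted p = 2.66e-06), and 1 rose (Cd44), where 2.04% of all genes were called lower and 2.06% higher. Il2ra, Tnfrsf18 and Ctla4, the genes shared with the Treg cell sum, had the smallest p of those that fell. Of the same 28, 2 fell in ex-Foxp3 control cells (Il2ra and Tnfrsf18), where 0.161% of all genes were called lower. Labeled cells had 4 of 28 higher than post-tamoxifen cells in fl/fl mice (Tigit, Tnfrsf18, Areg and Fgl2) and 12 of 28 in controls, led by Il1rl1 (2.99 ± 0.50, edgeR adjusted p = 0.000537). The shares of all genes called higher in these comparisons were 1.79% in fl/fl mice and 3.98% in controls.

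Transcription factors of naive and resting T cells, a list of 12 genes, had 11 positive values in the chimera and 1 positive value in each of the 3 pulse-chase genotype comparisons. Bach2, a repressor that opposes effector genes, rose in chimera knockouts (0.39 ± 0.08, edgeR adjusted p = 0.00483), as did Klf2 (0.40 ± 0.10, adjusted p = 0.0498), 2 of 12 with a median of 0.27, where 0.857% of all genes were called higher. Bach2 fell in ex-Foxp3 fl/fl cells against controls (-1.09 ± 0.24, edgeR adjusted p = 0.0449), 1 of 12, where 0.161% of all genes were called lower. In post-tamoxifen cells Lef1, Bach2, Foxp1, Foxo1 and Zeb1 fell in fl/fl mice, 5 of 12 with a median of -0.52, where 3.33% of all genes were called lower. Lef1 had a fold change of -0.88 ± 0.17 (edgeR adjusted p = 0.00195). None of the 12 was called in labeled cells between genotypes (median -0.29). Tcf7 rose in ex-Foxp3 over labeled cells of fl/fl mice (1.06 ± 0.16, edgeR adjusted p = 0.000111) and of controls (0.90 ± 0.18, adjusted p = 0.0141). Labeled cells had less Bach2, Myb and Foxp1 than post-tamoxifen cells in fl/fl mice (3 of 12, against 2.78% of all genes) and less Myb, Lef1, Bach2, Satb1, Foxp1 and Klf2 in controls (6 of 12, against 3.95%).

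Partner and lineage factors, 26 genes of which 25 were tested in the pulse-chase and 24 in the chimera, gave few calls. None was called between genotypes in the chimera, in labeled or in ex-Foxp3 cells (2.41%, 0.0101% and 0.181% of all genes were), and medians lay between -0.09 and 0.11. In post-tamoxifen cells Bhlhe40 (1.47 ± 0.26, edgeR adjusted p = 0.00127), Runx3 (0.80 ± 0.24, adjusted p = 0.0391) and Irf8 (0.998 ± 0.30, adjusted p = 0.0395) rose in fl/fl mice, 3 of 25, where 3.9% of all genes were called higher. Between populations Foxp3 and Irf8 fell in ex-Foxp3 against labeled fl/fl cells and Foxp3 in those of controls. Labeled cells had more Ikzf2 than post-tamoxifen cells in both genotypes, more Bhlhe40 in controls and less Irf8 in fl/fl mice.

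Genes that Ahr or the clock factors act on, 13 in the list and 9 tested, gave 1 call each in 3 comparisons and none elsewhere. Per1 fell in chimera knockouts (-0.39 ± 0.11, edgeR adjusted p = 0.0475), Tiparp, an Ahr target, rose in ex-Foxp3 over labeled fl/fl cells (0.63 ± 0.18, adjusted p = 0.0428), and Arntl rose in labeled over post-tamoxifen fl/fl cells (0.68 ± 0.13, adjusted p = 0.00174). In these 3 comparisons 2.41%, 4.09% and 4.58% of all genes were called. Of 10 helper cytokines and receptors 4 passed the filter on low counts in the pulse-chase and 1 in the chimera. The one call was Il9r, higher in labeled than in post-tamoxifen control cells (1.60 ± 0.31, edgeR adjusted p = 0.00143), where 3.98% of all genes were called higher.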

How the data were processed

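RNA of FACS-sorted mouse T cells was isolated with an AllPrep DNA/RNA Micro kit, and libraries came from the Takara SMARTer stranded total RNA kit (v2), per the labels' protocols. The authors deposited raw counts per gene for 41 libraries, which are not normalized. The submitters' processing notes name bcl2fastq (2.17.1.14), TopHat2 (2.1.0) and the genome build mm10. How reads were assigned to genes, and whether by strand, is not given in the sources used here. Antisense genes overlap exons of Gata3, Maf, Rora and Ahr, and without strand their reads cannot be told apart from those of the 4 genes.

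The members and gene lists were chosen with earlier results of these data known. Genes were taken by symbol, since some rows pair a symbol with the identifier of another gene, and the identifiers of all 9 members match. Genes with low counts were left out with filterByExpr, which left 9569 genes in the chimera fit (8 libraries) and 9921 in the pulse-chase fit (33 libraries, 6 groups). Tests used edgeR 4.0.16 (R 4.3.3) with TMM scaling and robust quasi-likelihood fits, and p-values were adjusted by Benjamini-Hochberg over all genes tested, with a threshold of 0.05. Interactions were tested as differences of fold changes. The biological coefficients of variation were 0.134 in the chimera and 0.215 in the pulse-chase. Levels in CPM use 1 TMM scaling over the 41 libraries, and levels per kilobase use the exon length of the gene in GENCODE vM21. The design text calls the samples biological replicates, and every pair of replicates differed beyond sampling noise (chi-square over its degrees of freedom at least 2.57). Other genes are named as the 3 with the highest Pearson correlation to each member among well-expressed genes (mean log2 CPM 4 or more), and list genes as the 4 with the smallest p among those called; genes named beyond these were chosen after their values were seen. For Maf and Ahr 1 of the 3 is not reported here.

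On simulated counts the fit recovered 96 and 100 of 100 genes changed 2-fold and 4-fold in the chimera, and 87 and 100 of 100 in labeled cells. The simulation gave every gene 1 common spread and changed only genes with a mean log2 CPM above 3. It held no difference between numbers 1 to 3 and 4 and above, so these rates cannot be carried over to the real libraries. Alternatives were DESeq2 1.42.0, DESeq2 size factors in edgeR, no filter on low counts, a fit of the compared groups alone, a block for the replicate number, numbers 1 to 3 or 4 and above alone, and leaving out each library or the libraries that stood apart; leaving out chimera control 1 with knockout 4, or pulse-chase controls 2 and 3, was added after seeing the data. Same-numbered libraries deviated together in every pair (correlations of 0.197 to 0.395) between ex-Foxp3 and labeled fl/fl cells, between the same populations of controls (0.191 to 0.331) and between labeled and post-tamoxifen fl/fl cells (0.248 to 0.465), so the numbers were taken as pairs there, from the data and not from the labels. Same-numbered labeled libraries of fl/fl and control mice also correlated, at 0.0931 to 0.33, although no mouse has both genotypes. Between genotypes the values ran from -0.00907 to 0.168 in ex-Foxp3 cells and from -0.177 to 0.271 in post-tamoxifen cells. A shared number therefore does not show by itself that libraries came from 1 mouse, and the blocked results rest on that choice. Promoter sequences are RefSeq's (GRCm38.p6). The depth of each library limits the genes with few reads, above all Nfil3 and Prdm1.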

Additional observations from a re-analysis of the deposited data

Results flagged for a closer look

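In 5 of 72 groups of values (9 genes in 8 groups), the highest or lowest library lay further from the rest than Dixon's 95% limit, where about 1 group in 20, or 3.6 of 72, is reached by chance. Prdm1 in labeled control 2 was at 56.79 CPM, above the other labeled controls (30.56 to 38.16 CPM). Rora was also highest in labeled control 2, at 262.5 CPM (others 214.5 to 228.2 CPM). In post-tamoxifen control 2, the library with Foxp3 at 123 CPM, Rora was at 210.2 CPM (others 74.62 to 106.5 CPM). Irf4 in labeled control 5 was at 65.48 CPM, below the others (97.08 to 106.6 CPM), and Gata3 in ex-Foxp3 control 4 was at 194.7 CPM, below the others (232.1 to 243.2 CPM). All 5 were in control libraries of the pulse-chase, 3 of them with the number 2, one of the numbers with Y-linked reads. Why they lie apart was not tested.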

How the results depend on the processing

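Of 421 alternatives of the 22 called member results, none changed sign and 319 stayed past the threshold; over all 90 member comparisons 46 of 1944 alternatives had another sign. Id2 in labeled over post-tamoxifen fl/fl cells reversed to 0.69 within numbers 4 and above. The counts of members and of all genes called were as follows where they moved, against 231 (chimera), 1 (labeled), 18 (ex-Foxp3) and 717 (post-tamoxifen) genes between genotypes, 406 (fl/fl) and 35 (control) for ex-Foxp3 over labeled, 454 and 787 for labeled over post-tamoxifen, and 2 for the interaction with the label.

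With no filter on low counts, 396 chimera genes and, for ex-Foxp3 over labeled cells, 0 members in fl/fl mice and 23 genes in controls passed. DESeq2 called 1 member and 51 genes in labeled cells, 2 and 85 in ex-Foxp3 cells, and 86 genes for ex-Foxp3 over labeled control cells. The replicate block gave 893 genes for ex-Foxp3 over labeled fl/fl cells, 1 member and 211 genes for the same in controls, 805 and 1280 genes for labeled over post-tamoxifen cells of fl/fl and control mice, and 6 for the interaction with the label. Where the numbers share no more than a number, the block gave 5 members and 180 genes in labeled cells, 5 and 383 in ex-Foxp3 cells, and it changed no other count of members by over 1.5 times. A fit of the compared groups alone gave 2 members and 41 genes in labeled, 3 and 137 in ex-Foxp3 and 2 and 147 in post-tamoxifen cells between genotypes, 3 and 137 for ex-Foxp3 over labeled control cells, 202 genes (fl/fl) and 4 members and 493 genes (control) for labeled over post-tamoxifen cells, and 1 gene for the interaction with the label. Numbers 1 to 3 alone gave 71 genes in labeled, 1 member and 143 genes in ex-Foxp3 and 1325 genes in post-tamoxifen cells, 1 member for ex-Foxp3 over labeled fl/fl cells, 0 and 78 (fl/fl) and 1 and 125 (control) for labeled over post-tamoxifen cells, and 0 genes for the interaction. Numbers 4 and above alone gave 7 genes in labeled, 5 in ex-Foxp3 and 3 members and 209 genes in post-tamoxifen cells, 179 genes for ex-Foxp3 over labeled fl/fl cells, 8 and 774 for labeled over post-tamoxifen fl/fl cells, and 4 for the interaction. Without the 4 libraries low in Foxp3 or with NK cell genes, 24 genes passed in labeled cells, 0 members and 221 genes for ex-Foxp3 over labeled fl/fl cells, 82 genes for the same in controls and 15 for the interaction. Without chimera controls 3 and 4, 95 genes passed. Without pulse-chase controls 2 and 3, 0, 5 and 451 genes passed in labeled, ex-Foxp3 and post-tamoxifen cells, 4 for ex-Foxp3 over labeled and 506 for labeled over post-tamoxifen control cells, and 1 for the interaction. The fits of fewer libraries or groups have fewer degrees of freedom; the cause of the other moves was not tested.

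Leaving out 1 library at a time gave 0 to 3 members and 100 to 352 genes in the chimera, 0 members and 1 to 9 genes in labeled, 0 to 1 and 5 to 56 in ex-Foxp3, and 4 to 7 and 390 to 1147 in post-tamoxifen cells. It gave 0 to 2 and 242 to 433 (fl/fl) and 0 and 4 to 29 (control) for ex-Foxp3 over labeled cells, 1 to 5 and 318 to 459 (fl/fl) and 6 to 8 and 491 to 1114 (control) for labeled over post-tamoxifen cells, and 0 members with 0 genes (Foxp3 loss) and 0 to 16 genes (label) for the interactions.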
